A study of Mus musculus with 6 samples.

Results

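Muscle cells make sarcomeres with the help of proteins that are not themselves motors: lysine methyltransferases, myosin chaperones, kelch adaptors of ubiquitin ligases, small heat shock proteins and actin nucleators. The levels of 10 such genes were followed here: Smyd1, Unc45b, Klhl31, Klhl40, Klhl41, Hspb2, Hspb3, Cryab, Hsp90aa1 and Lmod3. They were chosen by symbol, and all 10 were found among the 55414 gene identifiers of the count table. They were chosen with the contrast between the groups already known, so their differences between groups are given as a description, without p-values.

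RNA sequencing was carried out on C2C12 cells, a mouse myoblast line labelled as WT in genotype and kept in growth medium with fetal bovine serum. Cells were transfected by lipofectamine 3000 with a negative control siRNA (siRNA-NC, here siControl, 3 libraries) or with an siRNA against USF2 (siRNA-USF2, here siUsf2, 3 libraries), to ask which genes change when USF2 is knocked down. USF2 is a transcription factor of the helix-loop-helix zipper class whose dimers bind the E-box. All groups are 1 established cell line, the labels give no time between transfection and harvest, and they name no switch to differentiation medium.

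In the assembly of thick filaments, newly made myosin heavy chain is folded by UNC45B together with HSP90, and SMYD1, a methyltransferase of striated muscle, is needed for the same filaments to form. On thin filaments, LMOD3 nucleates actin at pointed ends, KLHL40 keeps LMOD3 and nebulin stable, and KLHL41 is a partner of nebulin. Alpha-B-crystallin (Cryab) binds desmin and titin and keeps them from aggregating, and HSPB2 and HSPB3 are small heat shock proteins of the same family found mainly in muscle. Loss of several of these factors causes nemaline or other congenital myopathies. Most of them are low in proliferating myoblasts and come up as the cells differentiate.

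In siUsf2 1 and 2, the 7 genes Smyd1, Unc45b, Klhl31, Klhl41, Hspb3, Cryab and Lmod3 fell against siControl 1 to 3, by the call used throughout: an edgeR quasi-likelihood test over all genes with a Benjamini-Hochberg adjusted p below 0.05. Among all 17217 genes tested in these 5 libraries, 6.4% were called lower and 4.97% higher. None of the 10 genes was called higher, and Klhl40, Hspb2 and Hsp90aa1 were not called. The difference was largest for Unc45b, at 15.1% of its siControl mean, and absent from the mean of Hsp90aa1, at 101%. The contrast chose the genes, so nothing is read from the distance between 7 of 10 and the background.

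The library labelled siUsf2 3 is shown apart. Its Usf2 level goes against its label: Usf2 was at 26.2, 31.2 and 23.0 CPM (a gene's count after every library is scaled to the same total) in siControl 1 to 3, at 17.1 and 15.3 CPM in siUsf2 1 and 2, and at 30.8 CPM (95% Poisson interval 25.2 to 37.2) in the library labelled siUsf2 3. Usf2 fell by 0.74 on the log2 scale in siUsf2 1 and 2 (SE 0.14, edgeR adjusted p = 6.43e-04). Usf2 itself was the ground for leaving a library out of that fit, so this p-value is no test of the knockdown. Over all 6 libraries the difference in Usf2 was -0.40 (SE 0.28, edgeR adjusted p = 0.702). The pseudogene Usf2-ps1 held 15.5 to 23.3% of the summed counts in the other 5 libraries and 0% in this one. With its counts added, Usf2 was at 27.3 to 40.7 CPM in siControl and at 21.2 and 19.4 CPM in siUsf2 1 and 2. The library labelled siUsf2 3 stayed at 30.8 CPM, inside the siControl range. The summed difference was -0.73 (SE 0.14) in 5 libraries and -0.53 (SE 0.22, edgeR adjusted p = 0.490) in 6. Total counts were 14790997 to 17715250 in the other 5 libraries and 3414565 in this one. Pseudogenes held 14.0 to 15.3% of counts in those 5 and 0.974% here, while ribosomal protein genes held 0.193 to 0.253% and 3.18%. Between-library spread (biological coefficient of variation) was 9.25% without this library and 40.0% with it.

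Sequences are shown first where a promoter holds a motif tied to the factor studied or to muscle genes. Windows from 250 bases before to 50 bases after the RefSeq gene start (GRCm38.p6) were used for 5 of the 10 genes: Smyd1, Unc45b, Klhl31, Klhl40 and Klhl41. Motifs were searched on both strands. The letters CACGTG, the E-box core that USF proteins bind, stood in 1 of the 5 windows, that of Unc45b, and in 7.15% of 32851 windows of the same length. The wider E-box CANNTG, which contains CACGTG and is also the form bound by the MyoD family, stood in 3 of 5 (Unc45b, Klhl40 and Klhl41) and in 72.3% of all windows. A MEF2 site, the A and T rich motif of the myocyte enhancer factors, stood in 1 of 5 (Klhl41) and in 0.557% of all windows. The heat shock element letters GAANNTTC stood in 0 of 5 and in 7.86% of all, and a CArG box in 0 of 5 and 1.63% of all. The stretches around the CACGTG and MEF2 matches read as follows, 5′ to 3′ on the gene's strand, with the match in capitals.
Unc45b, chr11:82911133-82911162 (plus strand, within an annotated 5′ UTR exon of a longer Unc45b transcript): agtcacccccttCACGTGggcatggatgtc
Klhl41, chr2:69670030-69670093 (plus strand): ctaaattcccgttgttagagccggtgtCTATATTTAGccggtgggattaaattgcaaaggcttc
The first base of the match lies 108 bases before the RefSeq start in Unc45b and 63 before it in Klhl41. These are letter matches and not measured binding sites.

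The myosin-directed factors are Smyd1, Unc45b and Hsp90aa1. Smyd1 (ENSMUSG00000055027, chromosome 6, 71213940 to 71322233, minus strand, GRCm38) was at 69.6, 66.3 and 66.2 CPM in siControl 1 to 3, at 18.3 and 20.4 CPM in siUsf2 1 and 2, and at 22.6 CPM (17.8 to 28.2) in the library labelled siUsf2 3. All 3 siUsf2 libraries lay at about the same low level, far below the narrow siControl range. The mean went from 67.4 ± 1.96 CPM (SD, n = 3) to 19.4 ± 1.48 CPM (SD, n = 2), a log2 difference of -1.81 (SE 0.11) in 5 libraries and of -1.76 (SE 0.10) in 6. Smyd1 is a methyltransferase of heart and skeletal muscle, and Smyd1 and Klhl41 were the 2 of the 10 genes still called when the library labelled siUsf2 3 was kept.

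Unc45b (ENSMUSG00000018845, chromosome 11, 82910550 to 82943403, plus strand) encodes the striated muscle chaperone of the myosin head. It was at 33.3, 33.0 and 32.2 CPM in siControl, at 4.99 and 4.89 CPM in siUsf2 1 and 2, and at 7.91 CPM (5.21 to 11.5) in the library labelled siUsf2 3. The siControl values spanned little more than 1 CPM, and every siUsf2 library lay far below them. The mean went from 32.8 ± 0.593 CPM (SD, n = 3) to 4.94 ± 0.0750 CPM (SD, n = 2), a log2 difference of -2.74 (SE 0.16). Over 6 libraries its difference was -2.53 (SE 0.20), not called. Its exons share 255 bases with Unc45bos and 151 bases with Slfn5os on the other strand. The strand setting of the counting is not given in the sources used here, so reads of the overlap cannot be told apart. Both partners were below 0.3 CPM in every library.

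Hsp90aa1 (ENSMUSG00000021270, chromosome 12, 110690605 to 110702728, minus strand) encodes the stress-inducible cytosolic HSP90 that works with UNC45B. Its level was 177, 187 and 176 CPM in siControl and 172 and 191 CPM in siUsf2 1 and 2, and the groups overlapped. The library labelled siUsf2 3 alone stood at 691 CPM (664 to 720), or 384% of the siControl mean. The 5-library difference was 0.00 in log2 units (SE 0.09), and its sign turned with the setting. The 6-library difference was 0.91 (SE 0.58), not called. In the library labelled siUsf2 3, 39.6% of all genes tested lay above every siControl library and 42.1% below, and Hsp90aa1 was the 1 gene of the 10 above.

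**Figure D1:**
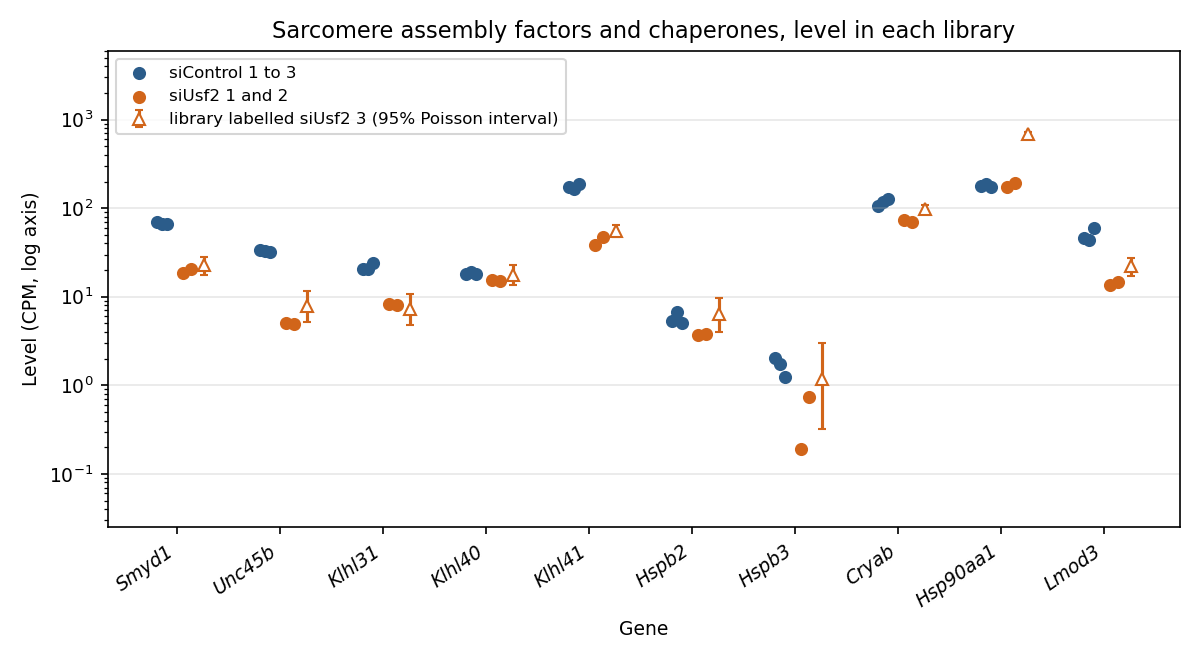
Level of each of the 10 genes in each library, in CPM on a log axis, with siControl 1 to 3, siUsf2 1 and 2 and the library labelled siUsf2 3 drawn apart as a triangle with its 95% Poisson interval. Smyd1 lies at 66.2 to 69.6 CPM in siControl and at 18.3 to 22.6 CPM in the 3 siUsf2 libraries, and Hsp90aa1 at 691 CPM in the library labelled siUsf2 3 against at most 191 CPM elsewhere.

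The level of Hsp90aa1 is read together with its processed pseudogenes, copies of its spliced mRNA elsewhere in the genome. Gm12346 (chromosome 11, 77293444 to 77295898, plus strand) differs from the Hsp90aa1 coding sequence at 11 of 2199 aligned bases, and Gm5844 (chromosome 3, 18008806 to 18010996, plus strand) at 21 of 2188. Among stretches of 90 coding bases aligned without gaps, that from position 164 to 253 had the most differences in whichever pseudogene differed less. It shows how alike the 3 are. Capitals mark the 5 positions at which any of them differ, 3 of them in Gm12346 and 2 in Gm5844.
Hsp90aa1: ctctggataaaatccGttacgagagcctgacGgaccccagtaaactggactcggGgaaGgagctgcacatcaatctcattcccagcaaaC
Gm12346: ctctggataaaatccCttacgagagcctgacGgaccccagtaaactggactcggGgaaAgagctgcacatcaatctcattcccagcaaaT
Gm5844: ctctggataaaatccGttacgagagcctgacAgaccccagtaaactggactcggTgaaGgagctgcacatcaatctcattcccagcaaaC
Of all words of 50 bases in Hsp90aa1 transcripts, 47.5% also occur in transcripts of other genes, 1664 of them in Gm12346 and 1190 in Gm5844.

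Gm12346 was at 560.1, 609.9 and 662 CPM in siControl, at 629 and 633 CPM in siUsf2 1 and 2, and at 8.49 CPM in the library labelled siUsf2 3. Gm5844 was at 186, 187 and 202 CPM in siControl, at 182 and 208 CPM in siUsf2 1 and 2, and at 0.586 CPM in the library labelled siUsf2 3. So the near-copies carried far more counts than Hsp90aa1 itself in 5 libraries and almost none in the last. The pseudogenes together held 80.9 to 83.1% of the summed counts in the 5 libraries and 1.30% in the library labelled siUsf2 3. The sum of Hsp90aa1 and its pseudogenes was 925, 987 and 1042 CPM in siControl, 986 and 1034 CPM in siUsf2 1 and 2, and 700.2 CPM in the library labelled siUsf2 3. On this sum the last library lay below all others, where on Hsp90aa1 alone it lay above all others. The summed difference was 0.02 in log2 units (SE 0.09) in 5 libraries and -0.14 (SE 0.18) in 6, and neither was called.

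**Figure D2:**
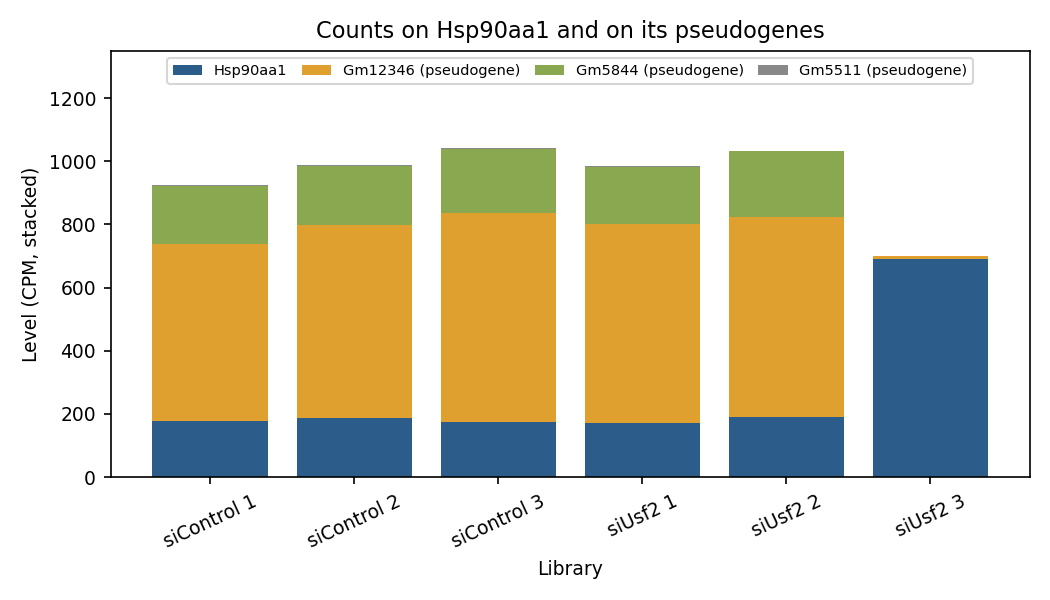
Counts assigned to Hsp90aa1 and to its pseudogenes Gm12346, Gm5844 and Gm5511 in each library, in CPM, stacked. Pseudogenes hold 80.9 to 83.1% of the bar in siControl 1 to 3 and siUsf2 1 and 2, and 1.30% of it for the library labelled siUsf2 3, whose bar is the shortest at 700.2 CPM.

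The other 9 genes were not paired with any pseudogene by the same alignment. No word of 50 bases of Smyd1, Klhl31, Hspb3 or Lmod3 occurred in another gene's transcripts. The share was 4.68% for Klhl41, 6.95% for Unc45b, 13.3% for Cryab, 20.0% for Klhl40 and 24.4% for Hspb2. In the last 4 the shared words lie in genes that overlap on the other strand.

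The muscle kelch proteins recruit substrates to the CUL3 ubiquitin ligase or shield them from it. Klhl31 and Klhl41 were called lower in siUsf2 1 and 2 and Klhl40 was not called, a contrast between genes that was not tested. Klhl41 (ENSMUSG00000075307, chromosome 2, 69670120 to 69684230, plus strand), a partner of nebulin, was at 173, 164 and 189.9 CPM in siControl, at 38.3 and 46.7 CPM in siUsf2 1 and 2, and at 55.4 CPM (47.7 to 63.8) in the library labelled siUsf2 3. The 3 siUsf2 values lay well under every siControl value. The mean went from 176 ± 13.2 CPM (SD, n = 3) to 42.5 ± 6.01 CPM (SD, n = 2), a log2 difference of -2.06 (SE 0.11) in 5 libraries and of -1.95 (SE 0.15) in 6.

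Klhl31 (ENSMUSG00000044938, chromosome 9, 77636500 to 77660127, plus strand), whose loss in mice causes a congenital myopathy, was at 20.6, 20.6 and 24.2 CPM in siControl, at 8.28 and 8.10 CPM in siUsf2 1 and 2, and at 7.32 CPM (4.74 to 10.8) in the library labelled siUsf2 3. The 3 siUsf2 libraries lay close together, below every siControl library. The mean went from 21.8 ± 2.08 CPM (SD, n = 3) to 8.19 ± 0.127 CPM (SD, n = 2), a log2 difference of -1.42 (SE 0.16). Over 6 libraries the difference was -1.49 (SE 0.15), not called.

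Klhl40 (ENSMUSG00000074001, chromosome 9, 121777607 to 121783818, plus strand), the stabiliser of LMOD3 and nebulin, was at 18.1, 18.9 and 17.9 CPM in siControl, at 15.6 and 15.1 CPM in siUsf2 1 and 2, and at 17.6 CPM (13.4 to 22.6) in the library labelled siUsf2 3. The siUsf2 values lay just below the siControl range, without overlap, yet the interval of the last covers the whole siControl range. The mean was 18.3 ± 0.509 CPM (SD, n = 3) against 15.3 ± 0.388 CPM (SD, n = 2), a difference of -0.27 in log2 units (SE 0.14), not called. Of its exon bases, 21.6% overlap Gm47108 on the other strand, which held counts in siControl 3 alone (0.113 CPM). Klhl40 was thus at 83.9% of siControl where its close relative Klhl41 was at 24.2%. The difference between the 2 genes was not tested.

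Lmod3 (ENSMUSG00000044086, chromosome 6, 97238534 to 97252759, minus strand), the leiomodin of skeletal muscle thin filaments, was at 46.6, 43.7 and 60.2 CPM in siControl, at 13.4 and 14.6 CPM in siUsf2 1 and 2, and at 22.0 CPM (17.3 to 27.5) in the library labelled siUsf2 3. Its siControl libraries spread more than those of Smyd1 or Unc45b, and the siUsf2 libraries still lay below all of them. The mean went from 50.2 ± 8.82 CPM (SD, n = 3) to 14.0 ± 0.845 CPM (SD, n = 2), a log2 difference of -1.86 (SE 0.14). Over 6 libraries the difference was -1.64 (SE 0.23), not called.

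The small heat shock proteins were led in level by Cryab (ENSMUSG00000032060, chromosome 9, 50751325 to 50756636, plus strand), which encodes alpha-B-crystallin. Cryab was at 107, 119 and 126 CPM in siControl, at 73.0 and 69.0 CPM in siUsf2 1 and 2, and at 97.8 CPM (87.6 to 109) in the library labelled siUsf2 3. The last value lay between the other siUsf2 libraries and siControl, and its interval reached into the siControl range. The mean went from 117 ± 9.61 CPM (SD, n = 3) to 71.0 ± 2.82 CPM (SD, n = 2), a log2 difference of -0.74 (SE 0.10). Over 6 libraries the difference was -0.59 (SE 0.14), not called.

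Hspb2 (ENSMUSG00000038086, chromosome 9, 50751078 to 50752354, minus strand), which binds the myotonic dystrophy kinase, neighbours Cryab on the other strand. It was at 5.27, 6.68 and 5.02 CPM in siControl, at 3.73 and 3.82 CPM in siUsf2 1 and 2, and at 6.44 CPM (4.04 to 9.75) in the library labelled siUsf2 3. The first 2 siUsf2 libraries lay below siControl and the last within its range. The difference was -0.60 in log2 units (SE 0.25) in 5 libraries and -0.36 (SE 0.28) in 6, not called in either. The annotated exons of Hspb2 and Cryab share 252 bases, 30.2% of Hspb2's exon bases and 17.0% of Cryab's, so reads of that stretch cannot be told apart without strand.

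Hspb3 (ENSMUSG00000051456, chromosome 13, 113662896 to 113663676, minus strand), which forms complexes with HSPB2 and is mutated in a motor neuropathy, was the least abundant of the 10. Its counts were 30, 28 and 22 in siControl, 3 and 11 in siUsf2 1 and 2, and 4 for the library labelled siUsf2 3. In CPM these are 2.03, 1.75 and 1.24, then 0.190 and 0.737, then 1.17 (0.319 to 3.00). Every siUsf2 value lay below every siControl value, yet the interval of the last covers the whole siControl range. Hspb3 fell by 1.86 in log2 units (SE 0.58), and the call was lost with DESeq2 and without siControl 1 (difference -1.70), siControl 2 (-1.82) or siUsf2 1 (-1.17). Without siUsf2 2 the difference was -3.11, still called.

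**Figure D3:**
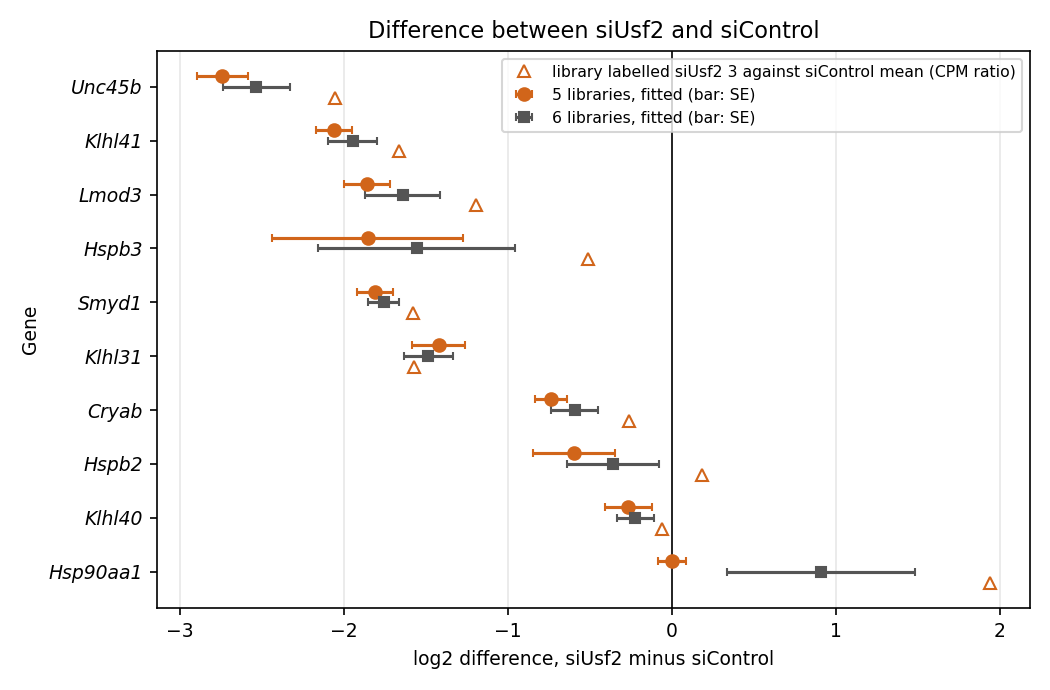
Difference between siUsf2 and siControl for each of the 10 genes on the log2 scale, fitted in 5 and in 6 libraries (bars: SE), with the ratio of the library labelled siUsf2 3 to the siControl mean as open triangles. In 5 libraries Unc45b lies lowest at -2.74, and Klhl40 and Hsp90aa1 lie nearest to 0. In 6 libraries Hsp90aa1 lies at 0.91, and its triangle stands at 1.94.

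Across the 10 genes, siUsf2 1 and 2 both lay below all siControl libraries for 9, the exception being Hsp90aa1, where 19.5% of all genes did so. With the library labelled siUsf2 3 included, all 3 siUsf2 libraries lay below siControl for 8, where 11.2% of all genes did so, and Hspb2 was the further exception. That library taken alone lay below every siControl library for the same 8 genes, as did 42.1% of all genes. Its log2 ratio to the siControl mean was -2.05 for Unc45b, -1.67 for Klhl41, -1.58 for Smyd1, -1.57 for Klhl31 and -1.19 for Lmod3. The ratios were nearer to 0 for Hspb3 (-0.51), Cryab (-0.26), Klhl40 (-0.06) and Hspb2 (0.19). So the 5 genes most reduced there are Unc45b, Klhl41, Smyd1, Klhl31 and Lmod3, and Klhl40 stood nearest to its siControl mean. Hspb3, Cryab and Klhl40 still lay below every siControl library there, though their 95% Poisson intervals reached into the siControl range. Hspb2 did not lie below every siControl library.

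In the 6-library fit 2 of the 10 genes, Smyd1 and Klhl41, were called lower and 0 higher, where 0.042% of 16662 genes were called lower and 0 higher. At an unadjusted edgeR p below 0.05, 7 of the 10 genes and 1753 of all 16662 genes passed in that fit. In 5 libraries 8 of the 10 genes and 4290 of all 17217 genes did so. The 10 genes were chosen with this contrast known, so nothing is read from these counts. Leaving out siControl 1, 2 or 3, or siUsf2 1 or 2, took the number called from 2 to 0, and leaving out the library labelled siUsf2 3 took it to 7. The median log2 difference of the 10 genes was -1.62 in 5 libraries and -1.52 in 6, beside -0.01 for all genes in both. In bulk RNA, fewer cells that express a gene and less RNA per cell cannot be told apart.

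Levels were also compared per kilobase of exon, the scale on which genes can be set side by side. In siControl the order was Cryab (79.2 CPM per kb), Klhl41 (69.5), Hsp90aa1 (45.8), Lmod3 (22.7) and Smyd1 (14.8). Below these came Klhl40 (7.31), Unc45b (7.31), Hspb2 (6.79), Klhl31 (3.35) and Hspb3 (2.14). The siControl ranges overlapped between Cryab and Klhl41, and between neighbours among Klhl40, Unc45b and Hspb2, and not between the other neighbours. In siUsf2 1 and 2 the order was Cryab (48.0) and Hsp90aa1 (46.2), whose ranges overlapped, then Klhl41 (16.8), Lmod3 (6.32), Klhl40 (6.13), Hspb2 (4.52), Smyd1 (4.26), Klhl31 (1.26), Unc45b (1.10) and Hspb3 (0.593). Ranges also overlapped between Lmod3 and Klhl40 and between Hspb2 and Smyd1. Unc45b thus moved from the same level as Klhl40 to below Klhl31, and Klhl41 from beside Cryab to below Hsp90aa1. The Hsp90aa1 values are for counts assigned to the gene itself, without its pseudogenes. Its siControl mean was 180 CPM on the gene itself and 985 CPM with pseudogene counts added. The place of Hsp90aa1 in both orders, and the move of Klhl41 to below it, thus depend on where such reads are assigned.

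Genes whose log2 levels ran most like Smyd1 over the 6 libraries were Ehd4, Arl6ip5 and Filip1 (Pearson r = 0.997 for each), Recql5 (0.995) and Car3 (0.994), among 9605 protein-coding genes compared. The points share libraries and depth, and the 6 points fall into 2 clusters of Smyd1 level, so these coefficients serve only to name genes. Filip1, a filamin-binding protein, was at 27.2 to 29.6 CPM in siControl and at 8.79 to 11.7 CPM in the 3 siUsf2 libraries. Ehd4, an endocytic ATPase, was at 199 to 208 CPM and at 122 to 139 CPM.

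The wider pathways were read from lists of genes that are not among the 10, 85 genes in 9 lists, of which 80 were tested in 5 libraries. Of these 80, 19 were called lower (background 6.4%) and 3 higher (4.97%), with a median log2 difference of -0.13 beside -0.01 for all genes. The lists were chosen with earlier results of these data known, so nothing is read from the distance between these counts and the background. Up to 3 called genes of each list are named below by smallest p, so their p-values are descriptions and no independent support. The number called higher was 1 without siUsf2 1 and 7 without siControl 3. In 6 libraries edgeR called 0 of the 80 list genes lower and 0 higher. Before adjustment, 17 list genes had an edgeR p below 0.05, beside 1753 of all 16662 genes tested. DESeq2 called 13 list genes lower and 2 higher, and limma-voom 7 lower and 1 higher. The share of all genes called with DESeq2 or limma-voom is not given, so these counts are not read as a result about the lists.

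Among partners of the myosin-directed factors, the list of other SMYD genes, Naca and Unc45a had 1 of 6 called lower, with a median of -0.12. The gene called was Naca, whose muscle isoform skNAC binds SMYD1. Naca was at 340.5, 272 and 394 CPM in siControl, at 128 and 131 CPM in siUsf2 1 and 2, and at 390.1 CPM in the library labelled siUsf2 3, inside the siControl range. Naca fell by 1.39 in log2 units (SE 0.12, edgeR adjusted p = 4.09e-07). With the counts of its 3 pseudogenes added, Naca fell by 0.52 (SE 0.09, edgeR adjusted p = 1.87e-04), and the pseudogenes held 50.3 to 60.8% of the sum in siControl and 74.0 to 75.9% in siUsf2 1 and 2. The sum was 693 to 793 CPM in siControl, 492 and 545 CPM in siUsf2 1 and 2, and 451 CPM in the library labelled siUsf2 3, which on this sum lay below all others. Counts per gene do not separate skNAC from the general isoform. Unc45a, the general relative of Unc45b, was chosen after its values were seen, and was at 34.3 ± 2.72 CPM (SD, n = 3) and 33.0 ± 2.43 CPM (SD, n = 2), a difference of -0.07 in log2 units (SE 0.11), not called.

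Among HSP90 paralogs and cochaperones, 2 of 13 were called lower and 0 higher, with a median of -0.05. Hsp90ab1, the constitutive cytosolic HSP90, fell by 0.29 in log2 units (SE 0.09, edgeR adjusted p = 0.0273), from 1154 ± 40.8 CPM (SD, n = 3) to 949.6 ± 74.5 CPM (SD, n = 2). Its level was 2482 CPM in the library labelled siUsf2 3, where its pseudogene was at 0 CPM against 1011 to 1243 CPM elsewhere. The call was lost with pseudogene counts added (edgeR adjusted p = 0.0677), without siControl 1 (0.0971) or 2 (0.0621), and without siUsf2 1 (0.474) or 2 (0.0565). Fkbp4, an HSP90-bound immunophilin, fell by 0.29 (SE 0.09, edgeR adjusted p = 0.0470), from 184 ± 20.7 CPM (SD, n = 3) to 152 ± 8.73 CPM (SD, n = 2), and its call was lost in most other settings, with adjusted p up to 0.431 without siUsf2 1. The call was also lost without siControl 1 (0.148), siControl 2 (0.198) and siUsf2 2 (0.0866).

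Of the other small heat shock proteins and BAG3, their cochaperone in autophagy, 6 of 8 were tested, 2 were called lower and 1 higher, with a median of -0.12. Hspb8, which acts with BAG3, was at 136, 151 and 144 CPM in siControl and at 88.3, 87.9 and 87.0 CPM in siUsf2 1 to 3, with the last library beside the other siUsf2 libraries. Hspb8 fell by 0.72 in log2 units (SE 0.09, edgeR adjusted p = 1.16e-06). Hspb7, a thin filament small heat shock protein, fell by 1.81 (SE 0.36, edgeR adjusted p = 7.92e-04), from 3.76 ± 0.471 CPM (SD, n = 3) to 1.08 ± 0.182 CPM (SD, n = 2). Hspb6, which encodes HSP20, rose by 0.56 (SE 0.14, edgeR adjusted p = 0.00653), from 15.3 ± 0.371 CPM to 22.8 ± 1.14 CPM, and the call was lost without siUsf2 1 (0.106). So in the small heat shock family Cryab, Hspb3, Hspb7 and Hspb8 were called lower and Hspb6 higher, and Hspb2, Hspb1 (0.04) and Hspb11 (-0.13) were not called.

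In the heat shock factor and HSP70 list 0 of 15 genes were called lower and 1 higher, with a median of 0.04. Hspa1b, an inducible HSP70, was at 62.7, 55.5 and 47.3 CPM in siControl and at 77.6 and 65.5 CPM in siUsf2 1 and 2, without overlap, and rose by 0.36 in log2 units (SE 0.11, edgeR adjusted p = 0.0291). The call was lost with DESeq2 (adjusted p = 0.0536) and, with edgeR, without siControl 2 (0.0824) or siUsf2 1 (0.366). Its level was 54.5 CPM in the library labelled siUsf2 3, inside the siControl range. None of the 8 subunits of the chaperonin CCT, which folds actin and tubulin, was called, with differences from -0.31 to -0.05 on the log2 scale. With the counts of its pseudogene added, which held 75.3 to 78.8% of the sum in 5 libraries and 0% in the library labelled siUsf2 3, Cct3 fell by 0.34 (SE 0.09, edgeR adjusted p = 0.00866). Cct3 was named after its values were seen.

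Of the other muscle kelch genes and the CUL3 ligase core, 11 of 13 were tested and 1 was called, lower, with a median of -0.15. Klhl30, another muscle kelch gene, was at 171, 188 and 155 CPM in siControl, at 102 and 114 CPM in siUsf2 1 and 2, and at 132 CPM in the library labelled siUsf2 3, each siUsf2 value below each siControl value. Klhl30 fell by 0.68 in log2 units (SE 0.10, edgeR adjusted p = 7.25e-06), less than Klhl31 and Klhl41 by value. Cul3, the ligase scaffold, was chosen after its values were seen, and was at 134 ± 11.3 CPM (SD, n = 3) and 139.96 ± 0.379 CPM (SD, n = 2), not called.

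Among 13 genes of thin filaments and actin assembly, 5 were called lower and 1 higher, with a median of -0.63 in 5 libraries and -0.22 in 6. Lmod2, the leiomodin best known from heart, fell by 1.90 in log2 units (SE 0.13, edgeR adjusted p = 4.19e-12), from 46.6 ± 2.44 CPM (SD, n = 3) to 12.6 ± 1.85 CPM (SD, n = 2), nearly the levels and the difference of Lmod3. Xirp1, an actin-binding protein of cell junctions, fell by 1.70 (SE 0.12, edgeR adjusted p = 1.88e-11). Tmod1, which caps pointed ends, fell by 1.24 (SE 0.12, edgeR adjusted p = 6.29e-09). The other 2 called lower, Cap2 (-0.99) and Nrap (-0.71), and the 1 called higher, Lmod1, were chosen after their values were seen. Lmod1, the leiomodin of smooth muscle, was at 15.7, 13.8 and 13.7 CPM in siControl and between 28.4 and 31.9 CPM in siUsf2 1 to 3, without overlap, and rose by 1.09 (SE 0.13, edgeR adjusted p = 5.22e-07). The 3 leiomodins thus did not share a direction: Lmod2 and Lmod3 were called lower, and Lmod1 higher. Nrap stood at 78.5 CPM in the library labelled siUsf2 3, above all siControl libraries (40.0 to 42.2 CPM).

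All 3 muscle RING ligases were called lower. Trim63 fell by 2.14 in log2 units (SE 0.28, edgeR adjusted p = 1.62e-06), from 8.66 ± 1.41 CPM (SD, n = 3) to 1.97 ± 0.794 CPM (SD, n = 2). Trim54 fell by 1.68 (SE 0.22, edgeR adjusted p = 2.95e-06), but its level was 10.5 CPM in the library labelled siUsf2 3, inside the siControl range of 9.54 to 12.2 CPM. Trim55 fell by 0.38 (SE 0.11, edgeR adjusted p = 0.0168), and the call was lost without siUsf2 1 (0.361).

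**Figure D4:**
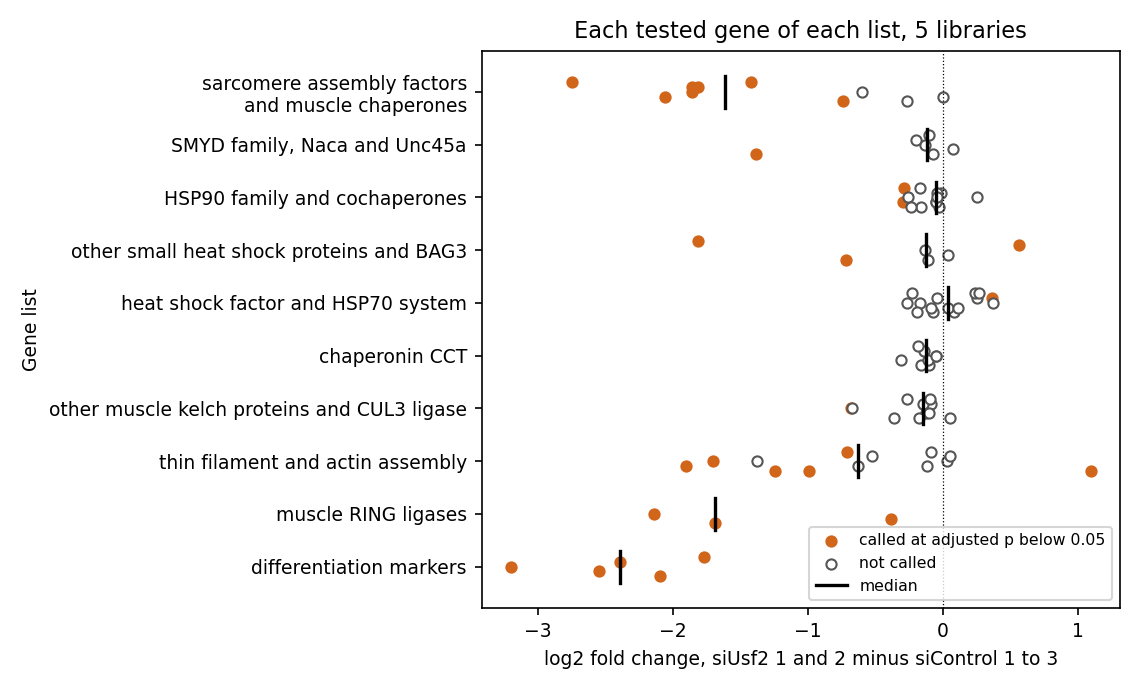
Log2 difference of each tested gene in each list, siUsf2 1 and 2 against siControl 1 to 3, with filled points for genes called at an adjusted p below 0.05, open points for genes not called and a bar at the median. The sarcomere assembly genes lie around a median of -1.62, the 3 RING ligases around -1.68, and the HSP90 and CCT lists near 0.

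The state of the cells is given beside these results from markers. Of 6 differentiation genes, 5 were tested and all 5 were called lower, with a median of -2.39, further from 0 than the -1.62 of the 10 genes. Mymk, the fusion protein myomaker, fell by 2.39 (SE 0.10, edgeR adjusted p = 7.30e-17). Myh3, the embryonic myosin heavy chain, fell by 3.20 (SE 0.12, edgeR adjusted p = 2.17e-15). The part of this shift in the levels of the 10 genes was not tested.

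Of markers of the labelled cell type, 6 myoblast genes summed to 2486 to 3041 CPM in siControl, to 2126 and 2180 CPM in siUsf2 1 and 2, and to 2972 CPM in the library labelled siUsf2 3, and none was at 0 in every library. So siUsf2 1 and 2 lay below every siControl library in this sum, and the last library lay within the siControl range. In siUsf2 1 and 2, Myod1, Cdh15, Itga7 and Des were below every siControl library, Myf5 was above, and Pax7 lay within the range. The sums of 4 adipocyte markers were 0.250 to 0.395 CPM in siControl and 0.938 to 2.93 CPM in siUsf2, without overlap, and rest on Fabp4 at 2 to 11 counts a library, with the other 3 at 4 counts or fewer in every library. The sums were 0.226 to 0.687 and 0.268 to 0.586 CPM for 4 bone and cartilage markers, 0.621 to 2.69 and 0 to 2.21 CPM for 3 macrophage markers (Adgre1 at 0 throughout), and 1.28 to 2.94 and 2.91 to 4.10 CPM for 3 endothelial markers. The macrophage sums rest mostly on Cd68 and the endothelial sums mostly on Tek, while Pecam1 and Cdh5 were at 6 counts or fewer in every library. A count of 0 allows 0.169 to 0.203 CPM in 5 libraries and 0.879 CPM in the library labelled siUsf2 3. The part of these markers in the levels of the 10 genes was not tested.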

How the data were processed

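The counts were deposited by the authors as whole-number read counts per Ensembl gene, not normalized. The submitters' processing notes name the build mm10 and the tools DESeq2, FastQC, featureCounts, HISAT2 and Trimmomatic. What each tool did, its version, and the annotation and strand setting of the counting are not stated in these sources. A table of normalized values, also deposited, was not used here. The labels do not say whether replicates were separate cultures, so p-values measure only the spread between these libraries, which may be technical. Symbols and coordinates came from GENCODE M21 (GRCm38), which named 52133 identifiers.

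CPM is a count scaled to the library's total. The test was edgeR 4.0.16 in R 4.3.3 (filterByExpr, TMM, robust glmQLFit and glmQLFTest, two-sided, Benjamini-Hochberg over all genes tested, called below 0.05), fitted on 5 libraries without the library labelled siUsf2 3 and on all 6. Fold changes are siUsf2 minus siControl. The median log2 fold change of all genes was -0.01 with TMM in both fits, and lay between -0.01 and 0.03 with RLE, upper-quartile or library-size scaling. Alternatives were these scalings, no filter, 1 CPM in 3 libraries, DESeq2 1.42.0, limma 3.58.1 (voom, and log2 of CPM plus 1 or 0.1), a replicate block, an adjusted p below 0.01, each library left out, and pseudogene counts added to their parent gene (aligned with minimap2 2.31, keeping 90% identity or more over 50% of the pseudogene and 150 matching bases). Intervals are exact Poisson at 95% and, like the limit for a count of 0 (3 counts), cover counting error only. Replicate libraries differed by more than counting noise (chi-square per degree of freedom 4.66 to 14.4, and 116 to 117 with the library labelled siUsf2 3), so each was counted as its own replicate. The edgeR script was first run on counts simulated for the 5-library design alone. That run does not cover the wider spread of the 6-library fit, and its outcome is not given here.

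The genes, lists and tests were chosen with earlier results of these data known. Named genes are the 10, Usf2, up to 3 called genes of each list by smallest p, and the 5 protein-coding genes with mean log2 CPM of at least 3 and the highest Pearson r with Smyd1. Promoter sequences are from RefSeq. Some promoter sequence is not reported here.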

Additional observations from a re-analysis of the deposited data

How the results depend on the processing

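In 5 libraries, the number of the 10 genes called lower stayed at 6 or 7 in every setting run, with 6 with DESeq2, at an adjusted p below 0.01 and without siControl 1, siControl 2 or siUsf2 1, and 0 were called higher. The 10 genes were chosen with this contrast known and the settings reuse the same libraries, so this steadiness is no support for the difference. The share of all genes called is not given for the settings other than the main one. List genes called lower ran from 16 to 26, against 19. List genes called higher were 3, and became 6 with upper-quartile scaling, 5 with library size only, 5 with a filter of 1 CPM and 7 with the replicate block, and ran from 1 to 7 with a library left out.

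In 6 libraries, 2 of the 10 genes were called lower. The number was 1 with RLE scaling, library size only, a 1 CPM filter or limma on log2(CPM + 1) or log2(CPM + 0.1), and 0 with upper-quartile scaling, with the replicate block or at an adjusted p below 0.01. It was 5 with no filter, 6 with DESeq2 and 5 with limma-voom, and ran from 0 to 7 with a library left out. List genes called lower went from 0 to 7 with no filter, 13 with DESeq2 and 7 with limma-voom, and ran from 0 to 19 with a library left out. List genes called higher went from 0 to 1 with no filter, 2 with DESeq2 and 1 with limma-voom, and ran from 0 to 3 with a library left out. The share of all genes called is not given for these other settings, so their counts are not read as a result about the genes. The causes were not tested.

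The direction turned for these values. Hsp90aa1 in 5 libraries (0.00) became -0.00599 with no filter, -0.00082 with limma-voom and -0.0127 with the replicate block, and ran from -0.0897 to 0.0889 with a library left out. In 6 libraries Hsp90aa1 became -0.14 and Hsp90ab1 -0.15 with pseudogene counts added, and Hsp90ab1 ran from -0.29 to 0.54 with a library left out, -0.29 being without siUsf2 3. Fkbp4 (-0.07) became 0.00506 without siControl 2, 0.059 without siUsf2 1 and 0.00378 without siUsf2 2.

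Where 1 siUsf2 library was left, it was assumed to vary like siControl. In the titles the replicate numbers share only a number. Correlations of same-numbered libraries' deviations from the group mean were 0.01 and 0.00 in 5 libraries and -0.10, -0.01 and -0.10 in 6. They cannot tell whether libraries were paired. With 2 siUsf2 libraries the deviations mirror each other. With 3, siUsf2 1 and 2 both ran against siUsf2 3 (-0.10, -0.10 and 0.11 with siControl 1). The replicate block called 7 of the 10 genes in 5 libraries and 0 in 6. In 5 libraries siControl 3 is alone in its block, so it adds nothing to the fitted difference. Depth limits Hspb3 most, with 3 to 30 counts a library, and all values of the shallow library labelled siUsf2 3.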
